A study of Mus musculus with 21 samples.

Results

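The transcript levels of 10 imprinted genes (Mest, Peg10, Sgce, Snrpn, Ndn, Peg3, Plagl1, Impact, Nnat and Grb10) were followed in mouse embryonic stem cells (ESCs) given retinoic acid (RA). They are 10 of 32285 genes in the time course tables and of 25239 in the tables of a separate Cyp26a1 set, and were found by their gene symbol in all 21 libraries. The list was chosen by name, with the TPM values of these libraries in view, so the genes were in effect selected on the levels and changes given here. Levels and calls below therefore describe them, and no test was made of the genes as a group. Every one of the 10 genes passed the filter on low values in both sets.

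Each group held 3 libraries of polyadenylated RNA. Wild type ESCs grown on gelatin with serum, LIF, PD0325901 and CHIR99021 (the last 2 are kinase inhibitors known jointly as 2i) formed the 0 h group, ESC_0h. The noRA_12h and noRA_24h groups were wild type cells kept without LIF and 2i for 12 h and 24 h, and the RA_12h and RA_24h groups were wild type cells given 2 µM RA for those times. For the RA groups of the time course, withdrawal of LIF and 2i is not stated in the labels. In the Cyp26a1 set, wild type (WT_RA24h) and Cyp26a1 knockout (KO_RA24h) ESCs lost LIF and 2i and then received 2 µM RA for 24 h. The labels name no strain, no cell line beyond ESC and no knockout clone, and do not say whether replicates were separate cultures, so all p-values measure only the spread between these libraries, which may be technical.

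Imprinted genes are transcribed mainly from 1 parental copy, which is set by DNA methylation laid down in the germ line and kept through early development by factors such as ZFP57, TRIM28 and DNMT1. Mest, Peg10, Sgce, Snrpn, Ndn, Peg3, Plagl1, Impact and Nnat are expressed mainly from the paternal copy, and Grb10 from the maternal copy in most tissues. Mouse ESCs can lose or gain such marks in culture. The tables give 1 level per gene for both parental copies, so allelic expression and methylation were not analysed here.

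Levels are in TPM (transcript abundance scaled for length and to a common sum), given as mean ± SD with n = 3 libraries. A change is a difference of mean log2(TPM + 1) with its standard error (SE), which understates the ratio of genes with low TPM. A gene was called where limma, fitted over all genes tested in a set, gave a Benjamini-Hochberg adjusted p below 0.05. Per library, 2.96 to 3.91 gigabases of aligned sequence lay behind the time course tables and 2.72 to 3.24 behind those of the Cyp26a1 set. Cyp26a1 itself stood at 585 to 606 TPM in the wild type libraries and at 4.03 to 4.93 TPM in the knockout libraries. Levels are never compared between sets, since the TPM of Gapdh ran from 5786 to 7659 in the time course but from 131 to 213 in the other tables. Fibroblast feeder markers summed to 16.6 to 25.3 TPM in the time course, with Lum at 0 in every group but RA_24h, and to 8.57 to 12.5 TPM in the Cyp26a1 set, with Lum and Postn at 0. The 12 pluripotency markers summed to 6962 to 9548 TPM in the time course and to 6168 to 8531 TPM in the Cyp26a1 set.

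Libraries of 1 group differed along a common axis, taken as the first principal component of the deviations from the group means over all genes tested. This axis held 67.2% of the within-group variance in the time course and 70.1% in the Cyp26a1 set. The weights of genes on it correlated with the length of their longest transcript (Spearman 0.31 and 0.42), and its sign was set to make this positive. What lies behind the axis was not tested. The library noRA_12h replicate 1 lay at 40.2 on it against -35.1 and -5.07 for the other replicates, and RA_24h replicate 2 lay at 49.8 against -18.6 and -31.2. In the Cyp26a1 set, KO_RA24h replicate 3 lay at 36.4 against -21.9 and -14.5. Groups also lay apart on this axis when libraries were centred on the mean of all libraries, with RA_12h at -33.8 to -41.1 and noRA_24h at 23.2 to 39.0. Impact, Peg3 and Plagl1 climbed most steeply with the axis. Their RA and knockout differences are therefore also given without the library at its upper end in the comparison concerned. Peg10, Grb10 and Sgce climbed with it less steeply, and the called RA differences of Peg10 at 12 h and Grb10 at 24 h are given likewise.

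Promoter sequence is shown for 3 of the genes with the largest changes, Mest and Snrpn, which rose, and Plagl1, which fell, to let a reader see the DNA next to their start sites. Each is the 250 bases before a RefSeq transcript start (GRCm38.p6), printed 5′ to 3′ in the direction of the gene, with matches on either strand to TGCCGC, the hexamer that ZFP57 binds when methylated, in capitals. Where a gene had several starts, the start with the most matches from 250 bases before to 50 bases after it was taken. The matches shown were thus in part selected, and the Mest window starting at 30733256 held 0. Mest is shown at chr6:30737800-30738049 on the plus strand, Snrpn at chr7:60005200-60005449 on the minus strand and Plagl1 at chr10:13090582-13090831 on the plus strand.
Mest: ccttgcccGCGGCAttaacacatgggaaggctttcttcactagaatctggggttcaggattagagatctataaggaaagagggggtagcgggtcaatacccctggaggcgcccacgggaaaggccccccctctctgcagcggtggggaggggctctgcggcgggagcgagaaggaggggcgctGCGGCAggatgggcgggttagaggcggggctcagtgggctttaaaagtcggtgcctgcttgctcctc
Snrpn: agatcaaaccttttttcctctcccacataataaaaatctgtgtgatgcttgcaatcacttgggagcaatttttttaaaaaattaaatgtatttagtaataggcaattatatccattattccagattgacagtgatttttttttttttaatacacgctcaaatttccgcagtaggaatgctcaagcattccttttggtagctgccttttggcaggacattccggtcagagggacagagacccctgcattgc
Plagl1: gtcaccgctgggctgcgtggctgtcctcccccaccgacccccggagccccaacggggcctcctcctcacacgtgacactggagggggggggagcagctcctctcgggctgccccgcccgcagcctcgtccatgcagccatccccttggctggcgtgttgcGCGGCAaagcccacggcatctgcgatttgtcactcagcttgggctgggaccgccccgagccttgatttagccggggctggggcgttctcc
The Mest stretch held 2 matches and 14 CG dinucleotides, the Plagl1 stretch 1 match and 19 CG dinucleotides, and the Snrpn stretch no match and 3 CG dinucleotides. RefSeq windows, which run from 250 bases before to 50 bases after a start, were searched for 7 of the 10 genes, in 13 windows. Peg10, Sgce and Impact were not part of this search, so the counts below say nothing of their promoters. Of the 13 windows, 6 windows of 5 genes (Mest, Snrpn, Plagl1, Nnat and Grb10) held the hexamer. Over all 32851 windows of this length, 11.61% hold it. The Mest windows starting at 30737800 and 30737803 overlap almost wholly, so the same matches are counted in both. By number of CG dinucleotides, windows with the hexamer lay at percentiles 51.35 to 98.35 of all windows and those without it at 23.31 to 63.71. The YY1 motif AAGATGGC (2.749% of all windows) and AGGTCA (16.26%), a single copy of the hexamer that retinoid receptor elements repeat, were in none of the 13 windows, searched on both strands. A match describes letters only, and no match says only that the letters are not in these windows.

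Mest, which encodes a protein of the alpha/beta hydrolase family found in early mesoderm, lies on chromosome 6 from 30723547 to 30748465 (mm10, plus strand). It stood at 18.6, 20.6 and 21.2 TPM in the ESC_0h libraries. After withdrawal the libraries held 80.7, 82.4 and 84.3 TPM (noRA_12h) and 137, 148 and 148 TPM (noRA_24h). No noRA library overlapped an ESC_0h library, and replicates stayed close together. Mest rose by 1.98 (SE 0.07, limma adjusted p = 9.29e-11) at 12 h and by 2.78 (SE 0.07, limma adjusted p = 3.15e-12) at 24 h without LIF and 2i, where it ranked at position 100 from the top of 13948 genes by change. Withdrawal and time in culture cannot be told apart, since cells with LIF and 2i were taken only at 0 h.

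With RA for 12 h, Mest stood lower than without it, at 50.0, 47.1 and 49.9 TPM, and the groups did not overlap (change -0.74, SE 0.07, limma adjusted p = 4.35e-06). After 24 h with RA it stood at 139, 123 and 124 TPM, where 1 RA library lay among the noRA libraries, and the difference from noRA_24h was not called (-0.16, SE 0.07, limma adjusted p = 0.0715). Without RA_24h replicate 1 that difference was -0.22 with an adjusted p of 0.0295. The RA difference thus moved from 12 h to 24 h by 0.57 (SE 0.09, limma adjusted p = 0.00216). In order of level, ESC_0h lay below RA_12h, noRA_12h, RA_24h and noRA_24h, with only the last pair overlapping.

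**Figure D1:**
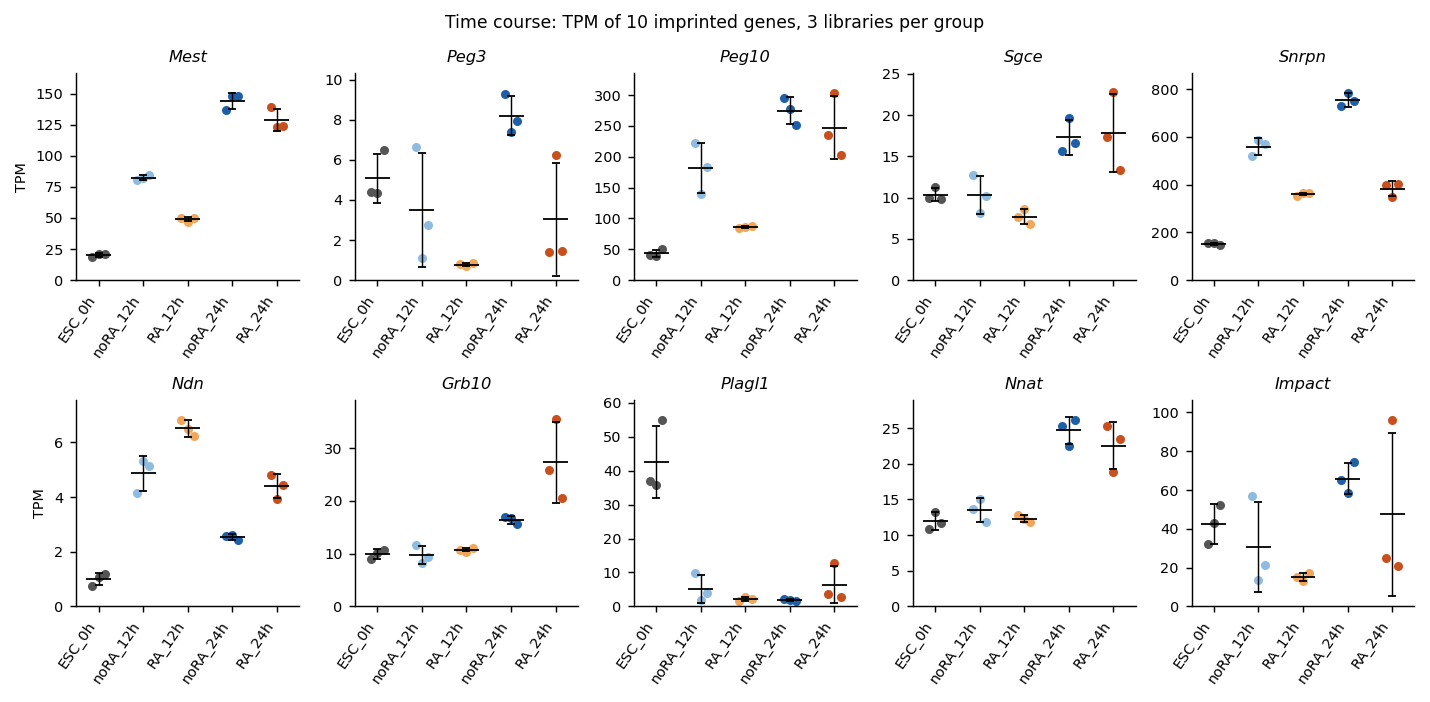
TPM (vertical axis, linear from 0) of each of the 10 genes in the 5 time course groups (horizontal axis); points are libraries, black lines group means and error bars the SD over 3 libraries. Mest runs from 18.6 to 21.2 TPM in ESC_0h to 137 to 148 TPM in noRA_24h, Plagl1 drops from 35.9 to 54.9 TPM to below 13 TPM, and Impact has a single high library in noRA_12h and in RA_24h.

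Peg10 and Sgce start 99 bases apart on opposite strands of chromosome 6 in the time course tables, and share a germ line methylated region. Peg10 (4747306 to 4760517) derives from a retrotransposon and is needed for the placenta, and Sgce (4674350 to 4747207) encodes epsilon-sarcoglycan, a membrane protein. Peg10 had 41.3, 39.4 and 50.1 TPM in ESC_0h, then 222, 140 and 183 TPM (noRA_12h) and 295, 277 and 251 TPM (noRA_24h). It rose by 2.02 (SE 0.16, limma adjusted p = 3.85e-07) at 12 h and by 2.63 (SE 0.16, limma adjusted p = 2.12e-08) at 24 h, with no overlap between groups. Sgce stood at 9.97, 11.2 and 9.79 TPM in ESC_0h and at 12.7, 8.16 and 10.2 TPM in noRA_12h, where the groups overlapped and the change was -0.01 (SE 0.18). At 24 h it stood at 15.6, 19.6 and 16.7 TPM and had risen by 0.69 (SE 0.18, limma adjusted p = 0.00611).

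The ratio of Peg10 to Sgce in TPM was 4.26 ± 0.809 (SD, n = 3) in ESC_0h, and 17.6 ± 0.433 in noRA_12h, 11.3 ± 1.43 in RA_12h and 16.0 ± 2.54 in noRA_24h. In RA_24h it lay between 13.3 and 15.2. No library of the later groups reached down to the highest ESC_0h value of 5.12. Levels of these neighbours, whose first exons lie close together, rest on counting that is not stated to use strand.

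In RA_12h, Peg10 stood at 84.5, 86.1 and 87.3 TPM, below every noRA_12h library (change -1.05, SE 0.16, limma adjusted p = 4.70e-04). Without noRA_12h replicate 1, Peg10 differed by -0.89 and was still called. In RA_24h it stood at 235, 303 and 203 TPM and overlapped noRA_24h (change -0.17, SE 0.16, limma adjusted p = 0.440). The RA difference of Peg10 moved by 0.88 (SE 0.23, limma adjusted p = 0.0364) from 12 h to 24 h, a call that ended without 9 of the 12 libraries taken out in turn. Sgce was not called with RA at either time (-0.37, SE 0.18, at 12 h and 0.02, SE 0.18, at 24 h).

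Snrpn and Ndn belong to the Prader-Willi syndrome region of chromosome 7. Snrpn (59982495 to 60140219, minus strand) encodes SmN, a spliceosomal protein, and Ndn (62346569 to 62350262, plus strand) encodes necdin, a MAGE family protein of differentiated neurons. Snrpn had the highest mean TPM of the 10 genes in each time course group. It had 154, 154 and 146 TPM in ESC_0h, then 518, 589 and 569 TPM (noRA_12h) and 730, 785 and 750 TPM (noRA_24h). These are rises of 1.88 (SE 0.06, limma adjusted p = 9.92e-11) and 2.32 (SE 0.06, limma adjusted p = 9.52e-12), and no libraries overlapped.

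With RA, Snrpn stayed at 354, 364 and 363 TPM at 12 h and at 400, 348 and 401 TPM at 24 h, so the RA groups overlapped each other and lay below both noRA groups. It was lower with RA by 0.63 (SE 0.06, limma adjusted p = 1.14e-05) at 12 h and by 0.98 (SE 0.06, limma adjusted p = 7.84e-08) at 24 h. The difference between these effects was -0.35 (SE 0.09, limma adjusted p = 0.0324), a call that ended without 7 of the 12 libraries taken out in turn. Snurf, which shares transcripts with Snrpn, ranged from 0.136 to 10.3 TPM over the time course libraries, so reads may have been split between the entries. With Snrpn and Snurf summed, the changes at 24 h were 2.32 without RA and -0.98 with RA against without.

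Ndn was low, at 0.739, 1.08 and 1.17 TPM in ESC_0h, 4.15, 5.32 and 5.13 TPM in noRA_12h and 2.57, 2.61 and 2.44 TPM in noRA_24h. It rose by 1.56 (SE 0.12, limma adjusted p = 2.34e-07) at 12 h and by 0.83 (SE 0.12, limma adjusted p = 5.88e-05) at 24 h. With RA it stood at 6.84, 6.48 and 6.23 TPM at 12 h and at 4.82, 3.95 and 4.44 TPM at 24 h. Every RA library lay above every noRA library of its time, with a change of 0.36 (SE 0.12, limma adjusted p = 0.0531) at 12 h and 0.61 (SE 0.12, limma adjusted p = 0.00142) at 24 h. Ndn and Snrpn, which lie on the same imprinted region, thus stood on opposite sides of noRA_24h in RA_24h.

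**Figure D2:**
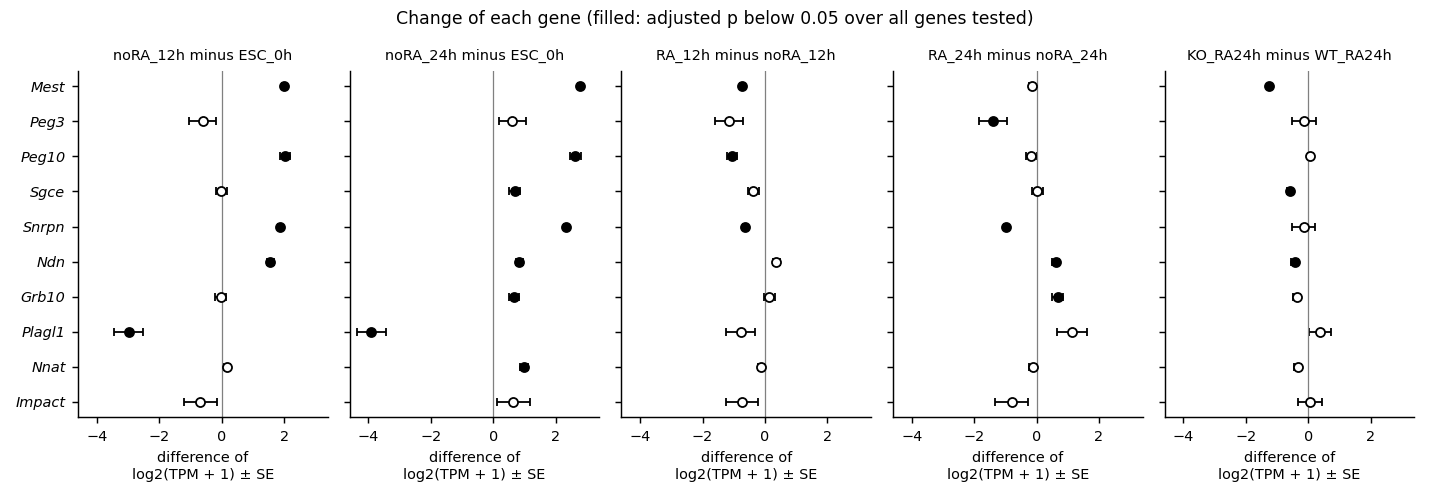
Change of each of the 10 genes as a difference of mean log2(TPM + 1) (horizontal axis, error bars are the SE) in 5 comparisons; filled points passed an adjusted p of 0.05 over all genes tested. Mest, Peg10 and Snrpn lie at 1.88 to 2.78 without LIF and 2i and Plagl1 at -2.98 and -3.90, while Mest lies lowest in the knockout at -1.26.

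Plagl1, on chromosome 10 from 13060504 to 13131694 (plus strand), encodes a zinc finger transcription factor that restrains growth. It had 37.1, 35.9 and 54.9 TPM in ESC_0h, then 9.86, 2.02 and 3.85 TPM in noRA_12h and 2.15, 1.77 and 1.67 TPM in noRA_24h. The fall was -2.98 (SE 0.47, limma adjusted p = 1.75e-04) at 12 h and -3.90 (SE 0.47, limma adjusted p = 1.23e-05) at 24 h, at position 14 from the bottom of 13948 genes. In RA_12h it stood at 1.67, 2.63 and 2.27 TPM, overlapping noRA_12h (-0.78, SE 0.47, and -0.28, SE 0.43, without noRA_12h replicate 1). In RA_24h it stood at 3.56, 12.9 and 2.90 TPM, with each library above noRA_24h, and the difference was not called (1.13, SE 0.47, limma adjusted p = 0.0773). The high value of 12.9 TPM came from RA_24h replicate 2, at 49.8 on the within-group axis, and without that library the difference was 0.56 (SE 0.39, limma adjusted p = 0.233). Plagl1 was called higher without RA_24h replicate 3 (1.48, limma adjusted p = 0.0438), after quantile normalization (1.15, limma adjusted p = 0.0344) and without both RA_24h replicate 2 and noRA_12h replicate 1 (0.56, limma adjusted p = 0.0439).

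Peg3 and Impact, like Plagl1, spread widely between replicates. Peg3, on chromosome 7 from 6703892 to 6730431 (minus strand), encodes a zinc finger protein of maternal behaviour and growth, and Impact, on chromosome 18, encodes an inhibitor of the kinase GCN2. Peg3 had 4.38, 4.36 and 6.49 TPM in ESC_0h, 6.65, 1.11 and 2.73 TPM in noRA_12h and 9.29, 7.38 and 7.96 TPM in noRA_24h. With RA it had 0.785, 0.692 and 0.834 TPM at 12 h, below every noRA_12h library (-1.15, SE 0.44, limma adjusted p = 0.0990), and 1.38, 6.27 and 1.43 TPM at 24 h. The 12 h difference of Peg3 was -0.67 without noRA_12h replicate 1 (limma adjusted p = 0.379, or 0.0498 with RA_24h replicate 2 also left out) and -1.59 without noRA_12h replicate 2 (limma adjusted p = 0.0205). The fall at 24 h was called (-1.40, SE 0.44, limma adjusted p = 0.0257), but lost the call without 5 of the 6 libraries taken out in turn, with adjusted p of 0.0516 to 0.111. Without the sixth, RA_24h replicate 2, Peg3 stood at -1.93 (SE 0.37, limma adjusted p = 0.00123).

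Impact had 32.1, 43.2 and 52.5 TPM in ESC_0h, 56.9, 13.4 and 21.5 TPM in noRA_12h and 65.2, 58.4 and 74.2 TPM in noRA_24h. In RA_12h it had 15.3, 12.9 and 17.1 TPM, and in RA_24h 25.2, 96.1 and 21.0 TPM. It was called in none of the comparisons, and the RA difference at 24 h was -0.80 (SE 0.52, limma adjusted p = 0.249). Without RA_24h replicate 2 that difference was -1.47 with an adjusted p of 0.0108. At 12 h the RA difference of Impact was -0.73 (SE 0.52), and -0.17 (SE 0.48) without noRA_12h replicate 1. Against ESC_0h, noRA_12h differed by -0.69 (SE 0.52) for Impact, and by -1.25 without that library (limma adjusted p = 0.0509, or 2.55e-04 with RA_24h replicate 2 also left out). With both left out, Impact was also called higher in noRA_24h than in ESC_0h (0.64, limma adjusted p = 0.00968). Without noRA_12h replicate 1, Peg3 at 12 h without LIF and 2i stood at -1.10 against ESC_0h with an adjusted p of 0.0424, where all libraries gave -0.61 (SE 0.44).

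**Figure D3:**
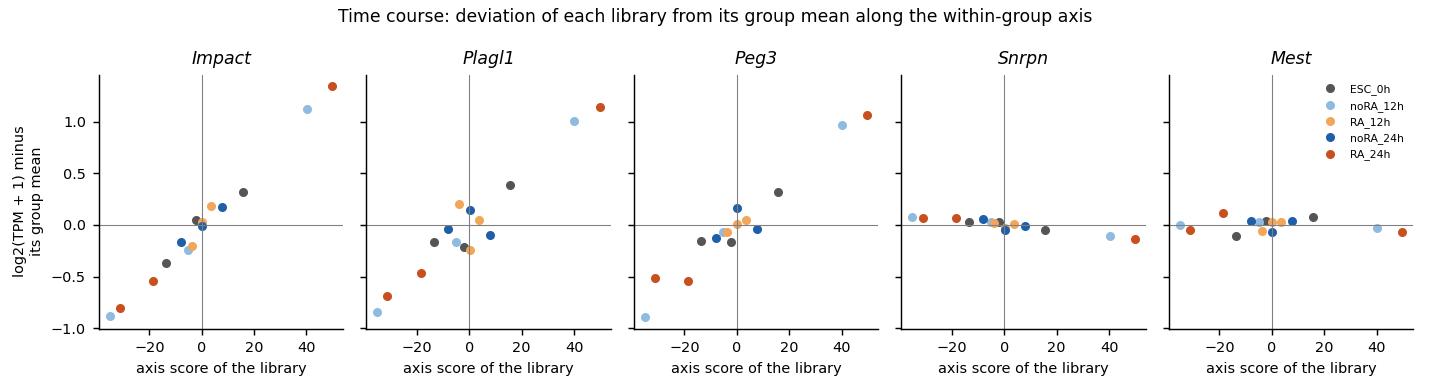
Deviation of log2(TPM + 1) from the group mean (vertical axis) against the library's score on the within-group axis (horizontal axis) for 5 genes in the 15 time course libraries, coloured by group. Impact, Plagl1 and Peg3 climb with the score, Snrpn declines slightly and Mest stays near 0, with noRA_12h and RA_24h libraries at the ends.

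The axis held 98.8% of the within-group variance of Impact in the time course, 95.1% of that of Peg3, 92.2% of that of Plagl1 and 88.7% of that of Snrpn, but 1.42% of that of Mest. Impact rose by 2.67, Plagl1 by 2.28 and Peg3 by 2.18 in log2(TPM + 1) per 100 axis units, while Snrpn fell by 0.26. The axis also held 86.2% of the within-group variance of Grb10, 79.5% of that of Peg10 and 58.2% of that of Sgce. These 3 genes rose by 0.72, 0.73 and 0.66 per 100 axis units. In the Cyp26a1 set the axis held 99.4% of the within-group variance of Impact and 90.7% of that of Snrpn, which there fell by 2.31 per 100 axis units. The axis was itself computed from all genes tested, these 10 included, so the shares are a description. RA_12h lay low and noRA_24h high on it, which are the groups where Peg3 and Impact had their lowest and highest means, and its part in those differences was not tested.

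Nnat and Grb10, like Sgce, were called higher without LIF and 2i at 24 h but not at 12 h. Nnat, which lies on chromosome 2 from 157560078 to 157562522 (plus strand) within an intron of Blcap, encodes a small membrane protein of the endoplasmic reticulum, and Grb10, on chromosome 11 from 11930508 to 12038683 (minus strand), encodes an adaptor that dampens insulin receptor signalling. Nnat stood at 10.9 to 15.1 TPM over the 9 libraries of ESC_0h, noRA_12h and RA_12h and at 25.3, 22.5 and 26.2 TPM in noRA_24h, a rise of 0.98 from ESC_0h (SE 0.12, limma adjusted p = 1.37e-05). In RA_24h it had 25.3, 18.9 and 23.5 TPM, overlapping noRA_24h (-0.13, SE 0.12). Grb10 stood at 8.14 to 11.6 TPM in the same 9 libraries and rose by 0.67 (SE 0.16, limma adjusted p = 0.00360) at 24 h without RA, to 16.9, 16.8 and 15.6 TPM. With RA at 24 h it stood at 25.8, 35.6 and 20.5 TPM, above every noRA_24h library (0.67, SE 0.16, limma adjusted p = 0.00632). Without RA_24h replicate 2, the library with 35.6 TPM, the RA difference of Grb10 was 0.47 and still called.

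Counted over the 10 genes, 4 rose (Mest, Peg10, Snrpn and Ndn), 1 fell and 5 were not called at 12 h without LIF and 2i, where the call went to 22% of all genes tested as higher and to 20.4% as lower. After 24 h 7 rose, 1 fell and 2 were not called, against 25.4% higher and 26.5% lower of all genes. The median change of the 10 genes was 0.07 at 12 h and 0.76 at 24 h, beside -0.04 and 0.03 over all genes tested. With RA for 12 h none rose and 3 fell (Mest, Peg10 and Snrpn), where 10.2% of all genes were higher and 7.19% lower, and the median was -0.68 beside -0.01. That median rests in part on noRA_12h replicate 1. Without this library Impact, Plagl1 and Sgce differed by only -0.17, -0.28 and -0.22, while Mest, Peg10 and Snrpn were still called. With RA for 24 h 2 rose (Ndn and Grb10) and 2 fell (Snrpn and Peg3), where 22.8% were higher and 12.5% lower, and the median was -0.15 beside 0.02. The RA difference moved upward between the times for 2 genes and downward for 1, where 4.17% of all genes moved upward and 2.68% downward (279 and 320 genes after quantile normalization, in place of 581 and 374). Those counts over all genes were 1007 and 538 without RA_24h replicate 2, and 1968 and 2032 with noRA_12h replicate 1 left out as well. The withdrawal comparisons share ESC_0h, and the RA comparisons share the noRA groups with them.

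The Cyp26a1 set asked what the loss of this RA-degrading enzyme changes after 24 h of RA. Mest stood at 478, 458 and 473 TPM in the wild type and at 190, 202 and 194 TPM in the knockout, which is 2.40-fold lower, with no overlap and little spread (-1.26, SE 0.05, limma adjusted p = 1.90e-04). Sgce stood at 38.3, 34.1 and 35.6 TPM and at 21.8, 23.5 and 25.4 TPM, and fell by 0.59 (SE 0.08, limma adjusted p = 0.0101). That call ended without WT_RA24h replicate 1 or 3 (adjusted p of 0.0643 and 0.0588). Ndn stood at 11.4, 12.6 and 10.5 TPM and at 7.95, 8.88 and 7.86 TPM, a change of -0.44 (SE 0.10, limma adjusted p = 0.0484) that lost its call with the replicate number as a block (adjusted p = 0.0577) and without 5 of the 6 libraries taken out in turn (0.0891 to 0.174). The call of Ndn was also lost with no filter (limma adjusted p = 0.0721), FPKM (0.0780), median-of-ratios scaling (0.0940) and quantile normalization (0.225).

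Peg10, the divergent neighbour of Sgce, stood at 352, 329 and 357 TPM in the wild type and at 329, 355 and 407 TPM in the knockout, where the libraries overlapped (0.07, SE 0.08). The ratio of Peg10 to Sgce was 9.62 ± 0.421 in the wild type and 15.4 ± 0.518 in the knockout (SD, n = 3), with no overlap. Grb10 (-0.37, SE 0.11, limma adjusted p = 0.0803) and Nnat (-0.34, SE 0.10, limma adjusted p = 0.0816) were lower in each knockout library than in every wild type library but were not called. Snrpn spread from 45.7 to 138 TPM in the knockout and from 87.2 to 103 TPM in the wild type, and Snurf from 14.5 to 52.3 TPM and from 21.3 to 41.5 TPM. Snrpn, Peg3, Plagl1 and Impact overlapped between the genotypes, with changes of -0.15, -0.13, 0.38 and 0.05. Without KO_RA24h replicate 3, at the end of the axis, these were 0.29, -0.58, -0.01 and -0.40 and still not called, so the direction turned for Snrpn, Plagl1 and Impact.

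**Figure D4:**
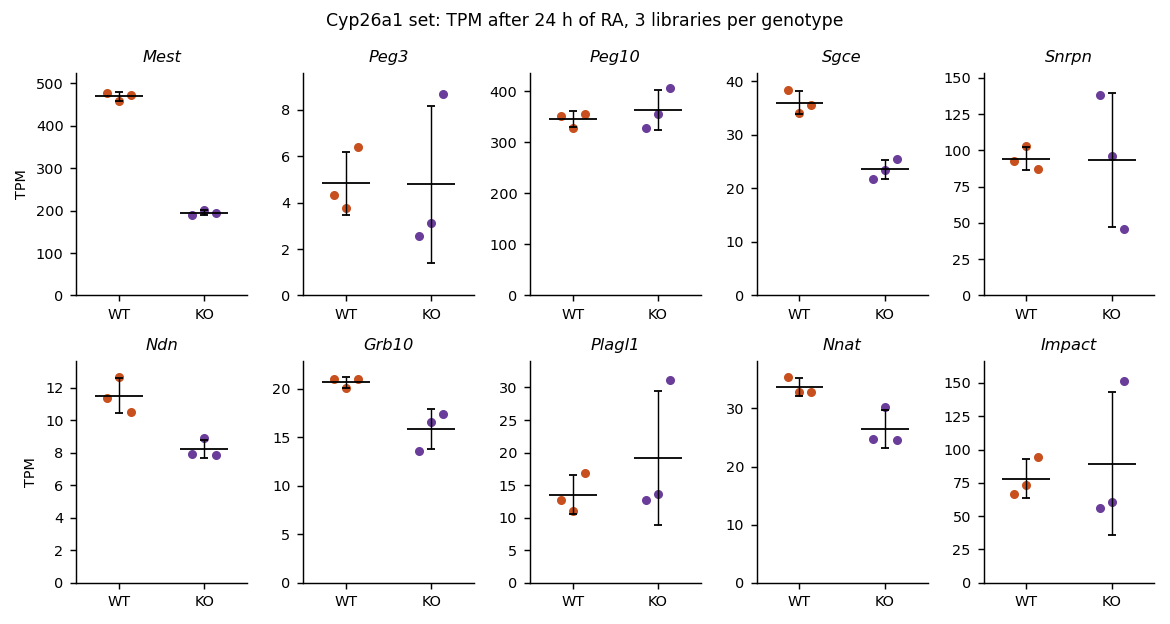
TPM (vertical axis, linear from 0) of each gene in the 3 wild type (WT) and 3 Cyp26a1 knockout (KO) libraries after 24 h of RA; points are libraries, lines means and error bars the SD. Mest separates most, at 458 to 478 TPM against 190 to 202 TPM, while Peg10 overlaps.

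In all, none of the 10 genes rose, 3 fell and 7 were not called in the knockout, where 3.34% of all 12848 genes tested were higher and 6.65% lower. Scaling by median of ratios turned those counts over all genes from 429 higher and 855 lower into 525 and 584, and quantile normalization into 395 and 477. The median change of the 10 genes was -0.24 beside -0.05 over all genes.

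Markers of other cell types differed along with the groups, those of primitive endoderm among them. The 10 primitive endoderm genes summed to 378.5 to 406 TPM in the wild type and to 154 to 162 TPM in the knockout, where 9 of 10 were lower, and none was at 0. In the time course they summed to 220 to 252 TPM in RA_24h and to 43.9 to 50.9 TPM in noRA_24h, where 10 of 10 were higher with RA. At 12 h they summed to 75.8 to 79.0 TPM in noRA_12h against 93.5 to 101 TPM in RA_12h, where 3 were higher and 7 not called. Gata6 averaged 0.842 TPM in noRA_12h and 17.9 TPM in RA_12h, while Col4a1, the largest part of both sums, averaged 65.8 and 65.5 TPM. Of 8 trophoblast markers tested, 6 were higher in RA_12h (84.6 to 86.9 TPM summed over the 10 listed, against 59.2 to 76.2 TPM in noRA_12h) and 7 in RA_24h (105 to 133 TPM against 58.9 to 61.4 TPM). Of 7 tested in the Cyp26a1 set, only Krt18 was called, as lower in the knockout (120 to 134 TPM summed against 153 to 163 TPM). Krt8 and Krt18 weighed most in these sums, with means of 78.5 and 53.8 TPM in the wild type and 65.8 and 34.8 TPM in the knockout. In RA_24h they averaged 48.3 and 41.7 TPM. Cdx2 (2.05 TPM in the wild type, 2.85 TPM in the knockout) and Eomes (10.1 and 12.6 TPM) averaged higher in the knockout. Plac1 was at 0 in RA_12h and noRA_24h. Of 5 neural progenitor markers tested, 3 were higher in RA_24h (54.3 to 67.8 TPM against 38.5 to 40.1 TPM), where Pax3 was at 0, and 1 was lower in the knockout. At 12 h 1 was higher with RA, though their sum was 63.6 to 67.8 TPM in RA_12h against 74.3 to 89.1 TPM in noRA_12h. In the knockout the sum was 42.2 to 50.9 TPM against 39.6 to 46.6 TPM in the wild type. Tubb3 alone averaged 49.2 TPM in RA_24h. Pluripotency markers moved too, with 4 of 12 higher and 7 lower in RA_24h, and 7 of 11 tested higher and 2 lower in the knockout. Those higher in RA_24h were Klf4, Nanog, Tfcp2l1 and Dppa5a, and the largest falls were those of Fgf5 (-3.60) and Otx2 (-3.43). Those lower in the knockout were Dnmt3b and Pou3f1, so the list did not move as 1. The part of these cells in the levels of Mest, Sgce, Ndn, Grb10 and Peg3 was not tested, and in bulk RNA fewer cells of a type and less RNA per cell cannot be told apart.

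Of 25 neighbours in the same imprinted domains 16 were tested in the time course and 15 in the Cyp26a1 set. Without LIF and 2i, 2 rose and 2 fell at 12 h (22% and 20.4% over all genes), and 6 rose and 4 fell at 24 h (25.4% and 26.5%). Pon2, an antioxidant lactonase near Peg10, rose by 1.55 (SE 0.13) and 1.39 (SE 0.13), and Ddc, the aromatic amino acid decarboxylase near Grb10, rose by 1.55 (SE 0.08) at 12 h. Snhg14, the long RNA downstream of Snrpn, rose by 1.84 (SE 0.57) at 24 h, Peg12, of the Ndn region, fell by 1.08 (SE 0.16), and Blcap, the host of Nnat, fell by 0.56 (SE 0.10) at 12 h. With RA 1 rose and 1 fell at 12 h (10.2% and 7.19% over all genes), and 2 rose (Ddc by 1.22, SE 0.08, and Phactr2 by 0.94, SE 0.16) and 2 fell at 24 h (22.8% and 12.5%). In the knockout, where 3.34% of all genes were higher and 6.65% lower, Cobl (0.80, SE 0.10) and Pon2 (0.66, SE 0.13) were higher and Copg2, a coat protein gene beside Mest, was lower (-0.34, SE 0.07, limma adjusted p = 0.0339). The RA difference moved upward between 12 h and 24 h for Ddc and downward for Atp10a (4.17% and 2.68% over all genes). The median change of the neighbours was 0.04 and 0.45 without LIF and 2i, -0.16 and -0.06 with RA, and -0.07 in the knockout, beside -0.04, 0.03, -0.01, 0.02 and -0.05 over all genes.

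Of 45 other imprinted genes, 34 were tested in the time course and 30 in the Cyp26a1 set. Without LIF and 2i, 8 rose and 9 fell at 12 h (22% and 20.4% over all genes) and 9 rose and 5 fell at 24 h (25.4% and 26.5%), among them Cdkn1c, a cell cycle inhibitor, which rose by 3.67 (SE 0.14) at 24 h. With RA, 3 rose and 7 fell at 12 h (10.2% and 7.19% over all genes), with Meg3, a maternally expressed long RNA, lower (-1.80, SE 0.15). At 24 h 8 rose and 6 fell (22.8% and 12.5%), with H19 higher by 3.12 (SE 0.14) and Dlk1 by 2.84 (SE 0.24). For 4 of these genes the RA difference moved upward between the times and for none downward (4.17% and 2.68%). In the knockout 1 was higher (Peg13) and 5 were lower (3.34% and 6.65%), among them Phlda2 (-1.05, SE 0.13) and Dlk1 (-0.92, SE 0.13). Their median change was -0.08 and 0.22 without LIF and 2i, -0.08 and -0.07 with RA, and -0.17 in the knockout.

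All 21 factors on a list for setting, keeping or removing DNA methylation and the repressive chromatin of imprints were tested. Without LIF and 2i, 8 rose and 4 fell at 12 h (22% and 20.4% over all genes), and 8 rose and 3 fell at 24 h (25.4% and 26.5%). The de novo methyltransferase gene Dnmt3a rose by 4.09 (SE 0.08) at 24 h, Dnmt3b by 2.38 (SE 0.06) and their cofactor Dnmt3l by 3.28 (SE 0.07), and Zfp57 rose by 1.07 (SE 0.07) at 12 h. With RA none rose and 2 fell at 12 h (10.2% and 7.19% over all genes), and 1 rose and 5 fell at 24 h (22.8% and 12.5%), with Dnmt3b lower (-1.45, SE 0.06) at 24 h. In the knockout (3.34% of all genes higher and 6.65% lower) Zfp57 was higher by 0.65 (SE 0.08) and Dnmt3a (-0.60, SE 0.06), Dnmt3b (-0.41, SE 0.07) and Ehmt1 (-0.29, SE 0.06) were lower. The RA difference moved downward between the times for Dnmt3a and Dnmt3b and upward for none (2.68% and 4.17%). The median change of the factors was -0.18 and 0.19 without LIF and 2i, -0.22 and -0.45 with RA, and 0.03 in the knockout.

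Profiles were compared by the root mean square difference of the 4 changes from ESC_0h among 9113 genes with a mean of at least 5 TPM, for the 8 genes that moved by at least 1. The nearest gene to Mest was Peg10 (0.17), and Mest was likewise the nearest to Peg10. After these came Lefty2 for Mest (0.28) and Pxdn for Peg10 (0.21). Nearest to Snrpn were Pcdh1 (0.13) and Spn (0.16), and nearest to Ndn Msln (0.15) and Etv4 (0.15). Grb10 lay nearest to Chd5 (0.14) and Fkbp1b (0.15), Peg3 to Lims1 (0.10) and Jade3 (0.10), and Impact to Plk4 (0.06) and Lrrc40 (0.07). Plagl1 had no close neighbour, with Pgc at 0.46 and Grin1 at 0.58. These distances rest on 5 group means that share ESC_0h and describe likeness only. Peg3 and Impact, which had the closest matches, had 95.1% and 98.8% of their within-group variance on the within-group axis. Whether the genes matched to them also follow that axis was not tested.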

How the data were processed

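Polyadenylated RNA (Trizol extraction) was read as paired ends, per the labels' protocols. HISAT2 (an aligner), StringTie (which estimates levels) and the mm10 build are named, with no version, per the submitters' processing notes. The authors deposited 1 table per library with coverage (signal), FPKM and TPM for each gene. FPKM values were scaled by the authors for length and library size, and TPM values as deposited also to a common sum, per the file headers. No other column of per-sample values was present (0 columns).

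Entries with the same identifier were summed. Genes reaching 1 TPM in 3 or more libraries (13948 in the time course, 12848 in the Cyp26a1 set) were fitted on log2(TPM + 1), with a pseudocount of 1, with limma 3.58.1 in R 4.3.3 (eBayes with an intensity trend), 1 model per set. Calls used Benjamini-Hochberg adjusted p below 0.05 over all genes of a set, in 6 comparisons. Scripts were tested on simulated data. Aligned gigabases are the modal coverage divided by FPKM among genes above 5 FPKM, a mode that 7.09% to 7.92% of them shared per time course library and 56.7% to 57.5% per Cyp26a1 set library. Python 3.11.15 (pandas 2.3.3, numpy 2.4.6, matplotlib 3.10.9) read the tables and drew the figures.

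The 10 genes and the gene lists were chosen with earlier results of these data known. All 10 are named, with up to 4 called genes per list and comparison whose libraries did not overlap, taken from the largest changes, and the 2 nearest profiles of each gene that moved by at least 1, predicted gene models left out. Groups came from the sample titles. In the Cyp26a1 set the deviations of same-numbered samples from their group means correlated at 0.189 to 0.536 in all 3 pairs. These 3 values are not independent, since replicate 3 lay highest on the within-group axis in both genotypes (12.1 and 36.4). No label says what a number shares, so whether the numbers pair these samples is not known, and the main fit used no pairing. Other settings tried were FPKM, quantile normalization, a pseudocount of 0.1, median-of-ratios scaling, no filter, no trend, genes averaging at least 5 TPM, a replicate block, the within-group axis as a covariate, only the groups compared, and each library left out in turn. Chosen after seeing the data were leaving out noRA_12h replicate 1 together with RA_24h replicate 2, and summing Snrpn with Snurf.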

Additional observations from a re-analysis of the deposited data

Results flagged for a closer look

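For 3 of the 10 genes the RA difference at 24 h differed from that at 12 h by a test of the difference itself (limma, adjusted over all genes tested). For Mest it moved by 0.57 in log2(TPM + 1), from -0.74 to -0.16. For Peg10 it moved by 0.88, from -1.05 to -0.17, and for Snrpn by -0.35, from -0.63 to -0.98. The call of Mest held without each library taken out in turn, while those of Peg10 and Snrpn ended in 9 and 7 of 12 such fits.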

How the results depend on the processing

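Of 1055 changes of single genes recomputed under another setting, 973 kept their side of the threshold, 40 gained a call, 42 lost one and none of the called changes reversed. The number of the 10 genes called stayed within 1.5 times of 5 and 8 in the withdrawal comparisons under every setting run. For RA_24h against noRA_24h (4 called) it was 2 with a mean of at least 5 TPM, where fewer of the genes are tested, 7 with the axis covariate and 7 without noRA_12h replicate 1 and RA_24h replicate 2. For RA_12h against noRA_12h (3 called) it was 8 with the axis covariate and 3 to 5 with a library left out, with 5 without noRA_12h replicate 2. For the change of the RA difference (3 called) it was 5 with the axis covariate, 5 without both libraries, 1 with only the groups compared and 1 to 3 with a library left out. It was 2 with no filter, where Peg10 lost its call. With median-of-ratios scaling, FPKM or no trend it was also 2, as Snrpn lost its call (limma adjusted p of 0.0673, 0.0926 and 0.0668). In the knockout (3 called) it was 6 with the axis covariate and 1 to 4 with a library left out, with 1 without WT_RA24h replicate 1 or 3. It was 2, with Ndn lost, under no filter, FPKM, median-of-ratios scaling, quantile normalization and the replicate block. The axis covariate leaves every change as it is and alters only the errors, by its construction.

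With the replicate number as a block, the change of the RA difference kept 1 call of 3, with Peg10 at an adjusted p of 0.0717 and Snrpn at 0.0701, and of the other calls of the 10 genes only that of Ndn in the knockout was lost (0.0577). In the time course 7 of 30 same-numbered pairs correlated above 0.1 (-0.837 to 0.415). These deviations lie largely on the within-group axis (67.2% of their variance), so the correlations cannot decide whether the numbers pair those libraries.

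Over all genes, the counts for RA_24h went from 3178 higher and 1737 lower to 3861 and 3567 without RA_24h replicate 2, and those for the knockout from 429 and 855 to 982 and 2178 without KO_RA24h replicate 3 and to 114 to 207 and 179 to 470 without any 1 of the other 5 libraries. Ndn and Peg3 stood below 13 TPM in every library, where depth and the pseudocount weigh most on a change. The cause of the other shifts was not tested.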
